A study of Cucumis sativus with 2 samples.

Results

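Cold and dehydration response genes were examined in bending fruit of cucumber (Cucumis sativus), as homologues of 41 listed Arabidopsis loci. A gene was taken as a member when the deposited table of read counts paired it with 1 of these loci, which gave 34 genes at 21 loci out of 20700 genes in the table. The listed loci were chosen as COR, ERD, RD, LEA and dehydrin genes, proline synthesis genes, ZAT zinc finger genes and factors acting upstream of DREB1, and the DREB1 genes themselves were left out. No row of the table was paired with the other 20 loci, among them CAMTA3, COR15A, RD29A, RAB18 and ZAT12, so these were not analysed here. Gene names are those of the Arabidopsis homologue in the deposited table.

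Poly(A) RNA was sequenced from the ventral side (1 library) and from the dorsal side (1 library) of fruit at day 2 after anthesis. No genotype, cultivar or treatment is given for either side in the labels, and the number of fruits behind each library is not stated there. Counted reads came to 21863715 on the ventral and 11893394 on the dorsal side. With 1 library per side there is no replicate, so no test between the sides was possible, and every difference below lacks a replicate check.

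In Arabidopsis, low temperature is signalled through calcium and through transcription factors such as ICE1, which switch on the DREB1 (CBF) genes. DREB1 proteins bind dehydration-responsive elements in promoters of COR, RD, ERD and LEA genes, and abscisic acid reaches part of the same targets by a separate route. Dehydrins and other LEA proteins are hydrophilic proteins that protect membranes and enzymes when water is lost, and many of them also accumulate in maturing seeds. ERD and RD genes were named for their induction by drying and encode proteins of many kinds, from proteases to membrane proteins.

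Of the 34 genes, 30 had at least 20 reads over both libraries and are called measured. The other 4 were 2 SAG21 copies, with 15 ventral and 1 dorsal read (Csa4G001850) and with 1 ventral and 0 dorsal reads (Csa4G001860), an RD19A copy with 1 read in each library (Csa7G004120), and COR413-PM2 (Csa6G488350) with 0 ventral and 2 dorsal reads. Where a library had 0 reads, its share could still be that of 3 reads, or 0.137 CPM (ventral) and 0.252 CPM (dorsal). Ratios are ventral over dorsal reads after scaling by the trimmed mean of M values (TMM), and log2 bounds of the 95% counting interval follow in brackets. A gene stood apart, in the words used here, if the libraries differed 2-fold or more and the interval left out a ratio of 1; this describes these libraries only.

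Among the measured genes, 9 of 30 (30.0%) stood apart higher in the ventral library, 2 (6.67%) did so in the dorsal library, and 19 lay apart on neither side. Across all 17462 measured genes, the shares were 13.2% (ventral-high) and 11.5% (dorsal-high). The members' median log2 ratio was 0.09, against 0.01 over all measured genes. The middle of the group therefore lay close to that of all genes, and 11 of the 30 members lay within 1.5-fold of equal. In their ratio, 5 members lay in the highest 5% of all measured genes and 2 in the lowest 5%. The 9 ventral-high genes were the dehydrin LTI45, the LEA gene LSR3, ERD4, a copy each of ERD7, LSR1, RD21A and SAG15, and 2 copies of ZAT10. The 2 dorsal-high genes were LEA7 and a copy of LEA4-5.

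**Figure D1:**
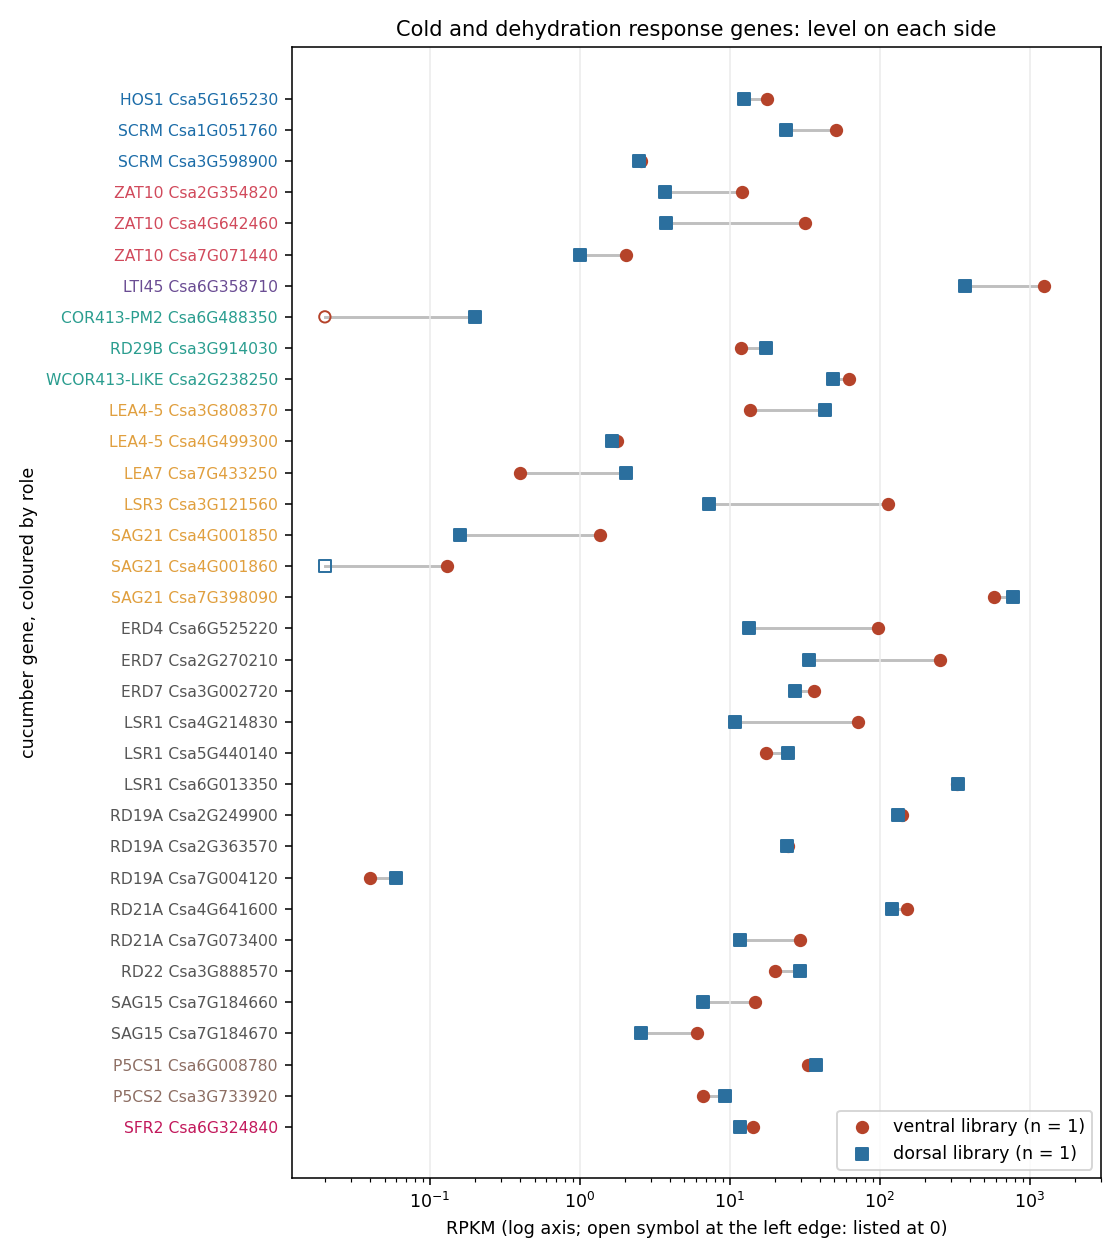
RPKM of all 34 genes on a log axis, with circles for the ventral and squares for the dorsal library (n = 1 each) and gene labels coloured by role; open symbols mark genes listed at 0. LTI45 and SAG21 are the highest on both sides, at 1242 and 582 RPKM on the ventral side and 370 and 779 RPKM on the dorsal side, and the widest gaps among well-read genes are those of LSR3, ZAT10 (Csa4G642460), ERD4 and ERD7 (Csa2G270210).

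In the deposited values, levels per transcript length are given as RPKM, reads scaled by gene length and library depth. The depth implied by RPKM is close to, but not the same as, the counted total reads. TMM scaling lowers every log2 ratio by 0.23 relative to counted total reads, and by slightly more relative to RPKM. A gene with nearly equal RPKM therefore has a ratio slightly below 1. The median RPKM of all genes was 10.1 on the ventral and 7.65 on the dorsal side, and 24 and 21 of the 34 members lay at or above it. Together the members took 0.422% of ventral and 0.235% of dorsal reads. LTI45 alone gave 37.1% of the members' ventral and 20.2% of their dorsal reads. Without it, their sum was 2653 CPM (ventral) and 1879 CPM (dorsal), against 4215 and 2353 CPM with it.

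Among the 3 measured members that act upstream of DREB1, 2 copies of SCRM and HOS1, none stood apart. SCRM is the table's name for ICE1, a helix-loop-helix activator of DREB1 genes that in Arabidopsis also acts in stomatal development. The copy of SCRM on chromosome 1 (Csa1G051760) had 2457 ventral and 628 dorsal reads, or 51.4 and 23.7 RPKM, a log2 ratio of 0.86 [0.73 to 0.99]. It lay just short of 2-fold, and with scaling by total reads it stood apart, at 1.09. The other copy of SCRM (Csa3G598900) had 112 ventral and 59 dorsal reads, or 2.56 and 2.47 RPKM, and its interval of -0.65 to 0.29 included a ratio of 1. HOS1 (Csa5G165230), a ubiquitin ligase that targets ICE1 for breakdown in Arabidopsis, had 1354 ventral and 527 dorsal reads, a log2 ratio of 0.25 [0.10 to 0.40]. HOS1 has the longest exonic length of the members, 3474 bp, and with the length trend described further on removed its log2 ratio was -0.46.

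ZAT10 encodes a zinc finger repressor with an EAR motif that is induced by cold, drought and salt in Arabidopsis. All 3 copies had a log2 ratio above 0, and 2 of them stood apart. All were paired with AT1G27730. The copy on chromosome 4 (Csa4G642460) had 777 ventral and 50 dorsal reads, or 32.1 and 3.78 RPKM, and was 7.20-fold higher in the ventral library [2.43 to 3.29]. On chromosome 2, the copy Csa2G354820 had 186 ventral and 31 dorsal reads, or 12.2 and 3.72 RPKM, and was 2.78-fold higher [0.92 to 2.07]. These copies were thus near one another on the dorsal side and differed on the ventral side. The third copy (Csa7G071440) had 34 ventral and 9 dorsal reads, and its interval of -0.28 to 2.05 included a ratio of 1. With the length trend removed it stood apart too, at a log2 ratio of 1.29. The implied exonic length of all 3 copies was at least 99% of the listed gene length, as in genes without introns. This held for 5 of the 30 measured members, the other two being LSR1 (Csa4G214830) and SAG15 (Csa7G184670).

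LTI45, also known as ERD10, was the only dehydrin locus of the list with a row in the table. Dehydrins are LEA proteins with a lysine-rich repeat, and ERD10 is an acidic one induced by cold and drying. LTI45 (Csa6G358710, chromosome 6, homologue of AT1G20450) had 34168 ventral and 5647 dorsal reads, or 1242 and 370 RPKM. By RPKM it was the 37th most abundant gene of the ventral library and the 354th of the dorsal library. It was 2.80-fold higher in the ventral library, with a narrow interval of 1.45 to 1.53 that reflects its many reads.

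The COR and RD29 genes did not stand apart. WCOR413-LIKE (Csa2G238250), a homologue of the multispanning plasma membrane protein COR413-PM1, had 1229 ventral and 534 dorsal reads, a log2 ratio of 0.09 [-0.06 to 0.24]. RD29B (Csa3G914030), a hydrophilic protein gene known in Arabidopsis mainly as a target of abscisic acid signalling, had 299 ventral and 243 dorsal reads, or 11.99 and 17.57 RPKM. Its log2 ratio of -0.81 [-1.06 to -0.56] lay on the dorsal side but short of 2-fold.

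LEA genes differed most among themselves, with members at both ends of the range. LSR3 (Csa3G121560, chromosome 3, paired with AT1G01470), the homologue of the atypical LEA protein LEA14, had 2000 ventral and 70 dorsal reads, or 114 and 7.27 RPKM. At 13.2-fold [3.38 to 4.09] it had the highest ratio of the members, above that of 99.7% of all measured genes. LEA4-5 on chromosome 3 (Csa3G808370), a homologue of a group of LEA proteins that guard enzymes during drying, had 94 ventral and 164 dorsal reads, or 13.7 and 43.1 RPKM. It was 3.77-fold higher in the dorsal library [-2.30 to -1.54]. LEA7 (Csa7G433250) had only 6 ventral and 16 dorsal reads, which made it 5.76-fold higher in the dorsal library with a wide interval [-4.17 to -1.10]. The other LEA4-5 copy (Csa4G499300) had 20 ventral and 10 dorsal reads, and its interval of -1.27 to 1.15 covered ratios on both sides of 1. SAG21 (Csa7G398090), a small LEA protein that is sent to mitochondria and linked to oxidative stress in Arabidopsis, had 10466 ventral and 7764 dorsal reads, or 582 and 779 RPKM. It was the most abundant member of the dorsal library and had a log2 ratio of -0.68 [-0.72 to -0.64], short of 2-fold.

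Of the 13 measured ERD and RD genes, 5 were ventral-high and none dorsal-high, against 13.2% and 11.5% of all measured genes. Their median log2 ratio was 0.16. With the length trend described further on removed, 4 were ventral-high, against 10.9% of all measured genes. ERD7 on chromosome 2 (Csa2G270210, paired with AT2G17840), from a family tied to membrane lipids and cold tolerance in Arabidopsis, had 8664 ventral and 644 dorsal reads, or 252 and 33.7 RPKM. It was 6.23-fold higher in the ventral library [2.52 to 2.76]. The other ERD7 copy (Csa3G002720) had 1613 ventral and 669 dorsal reads, a log2 ratio of 0.16 [0.03 to 0.29]. The copies thus had similar dorsal levels, at 33.7 and 27.3 RPKM, and differed on the ventral side, at 252 and 36.5 RPKM. ERD4 (Csa6G525220, paired with AT1G30360), a membrane protein of the OSCA family of osmotically gated calcium channels, had 6181 ventral and 474 dorsal reads, or 97.5 and 13.5 RPKM. ERD4 was 6.04-fold higher in the ventral library [2.46 to 2.73].

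LSR1 is the table's name for ERD15 (AT2G41430), a small acidic protein that binds poly(A)-binding protein and dampens responses to abscisic acid in Arabidopsis. The LSR1 copy on chromosome 4 (Csa4G214830) had 2104 ventral and 174 dorsal reads, or 72.0 and 10.8 RPKM, and was 5.60-fold higher in the ventral library [2.26 to 2.72]. The most abundant copy (Csa6G013350) had 3066 ventral and 1723 dorsal reads, or 329 and 333 RPKM, a log2 ratio of -0.28 [-0.36 to -0.19]. The third (Csa5G440140) had 404 ventral and 314 dorsal reads, a log2 ratio of -0.75 [-0.96 to -0.53]. A single copy of 3 therefore stood apart, and it was not the most abundant one on either side.

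RD21A and RD19A encode papain-like cysteine proteases. RD21A on chromosome 7 (Csa7G073400) had 1313 ventral and 291 dorsal reads, or 29.4 and 11.8 RPKM, and was 2.09-fold higher in the ventral library [0.88 to 1.25]. With the length trend removed its log2 ratio was 0.86, short of 2-fold. The more abundant RD21A copy (Csa4G641600) had 5049 ventral and 2199 dorsal reads, or 153 and 120 RPKM, a log2 ratio of 0.09 [0.02 to 0.16]. The 2 measured RD19A copies had log2 ratios of -0.17 (Csa2G249900, 5161 ventral and 2690 dorsal reads) and -0.25 (Csa2G363570, 815 and 448 reads). The protease genes were thus at near-equal levels on the sides, apart from the less abundant RD21A copy.

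SAG15 is the table's name for ERD1, the ClpD subunit of the chloroplast Clp protease. The gene Csa7G184660 had 751 ventral and 187 dorsal reads, or 14.7 and 6.61 RPKM, a log2 ratio of 0.90 [0.66 to 1.13], just short of 2-fold. With scaling by total reads it stood apart, at 1.13. The short gene Csa7G184670, whose identifier follows it directly, had 61 ventral and 14 dorsal reads and was 2.02-fold higher in the ventral library [0.16 to 1.97]. Its listed length was 458 bp against 12998 bp for Csa7G184660, and it may be a fragment of that gene and not a separate copy, which was not tested. Without it, 8 of 29 measured members were ventral-high. Its call rested on few reads and on the scaling, since with upper-quartile factors the log2 ratio was 0.99. RD22 (Csa3G888570), a BURP-domain protein gene induced through MYC and MYB factors in Arabidopsis, had 610 ventral and 492 dorsal reads, or 20.2 and 29.3 RPKM. Its log2 ratio was -0.80 [-0.97 to -0.63].

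Both proline synthesis genes lay on the dorsal side of equal. P5CS enzymes carry out the rate-limiting step that makes proline, a compatible solute, from glutamate. P5CS2 (Csa3G733920) had 432 ventral and 338 dorsal reads, or 6.62 and 9.35 RPKM, a log2 ratio of -0.76 [-0.97 to -0.55]. P5CS1 (Csa6G008780) had 1982 ventral and 1242 dorsal reads, or 33.2 and 37.5 RPKM, a log2 ratio of -0.44 [-0.54 to -0.33]. Neither stood apart as counted, and with the length trend removed P5CS2 did, at -1.33, and P5CS1 had -0.93. SFR2 (Csa6G324840), an enzyme that remodels galactolipids of the chloroplast envelope in freezing, had 739 ventral and 334 dorsal reads, a log2 ratio of 0.04 [-0.15 to 0.23].

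**Figure D2:**
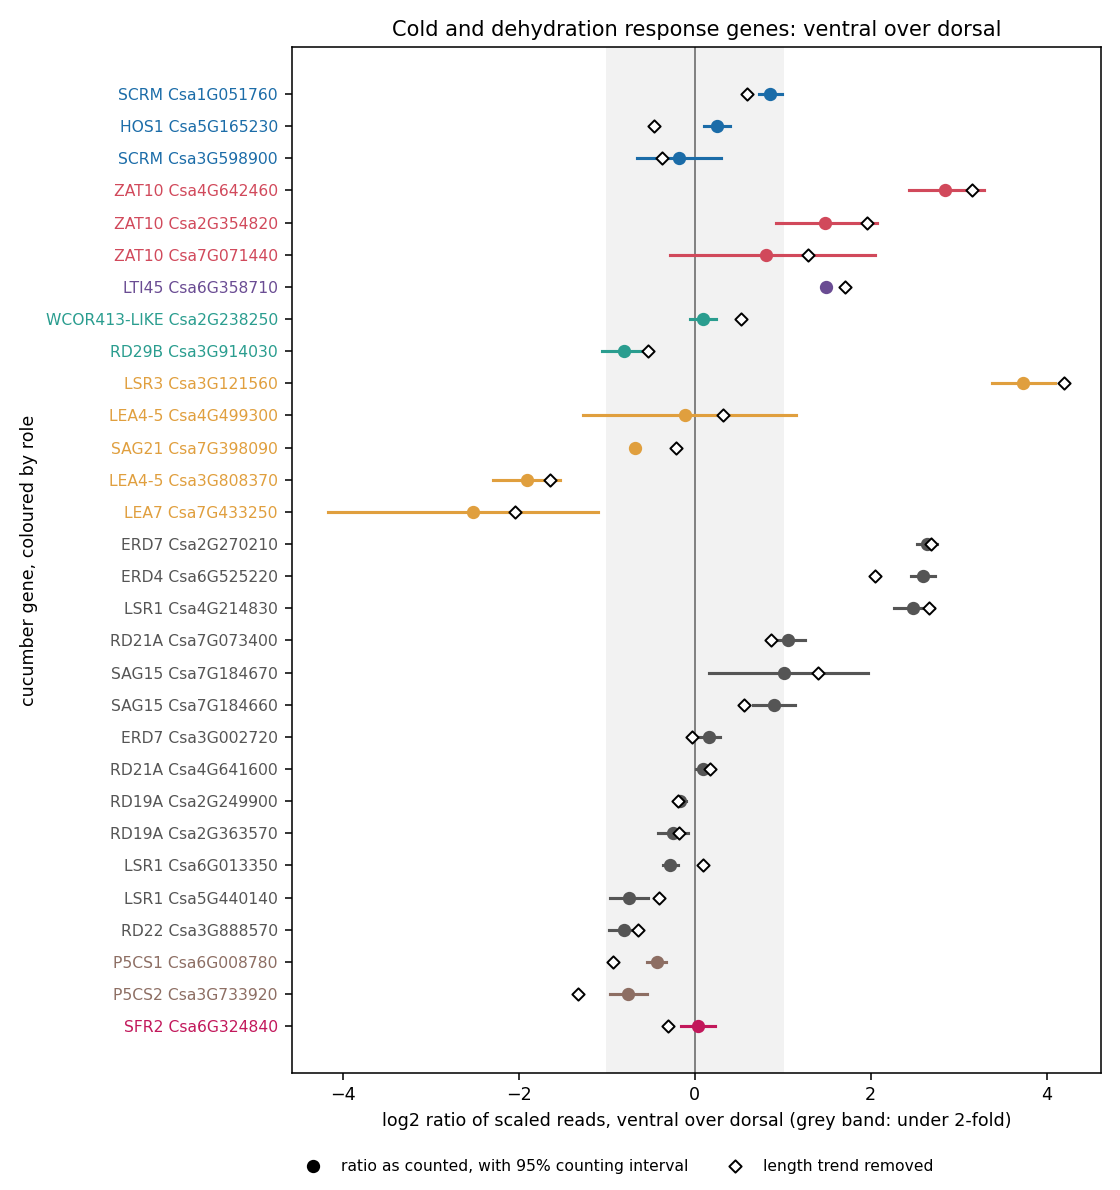
Log2 ratio of scaled reads, ventral over dorsal, for the 30 measured genes grouped by role; filled points are ratios as counted with 95% counting intervals as bars, open diamonds are ratios with the length trend removed, and the grey band marks ratios under 2-fold. LSR3 lies furthest to the ventral side at 3.73 and LEA7 furthest to the dorsal side at -2.53, with most ERD and RD genes inside the band.

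Copies of 1 Arabidopsis locus often had unlike ratios. Comparing copies within the same libraries gives a ratio of ratios that does not depend on how the libraries are scaled. In the 8 loci with more than 1 measured copy there were 12 pairs of copies, of which 7 (58.3%) had ratios at least 2-fold apart with an interval that excluded no difference. Over all 3501 pairs from the 2591 loci with 2 or 3 measured copies, 31.2% had ratios at least 2-fold apart, counted without an interval. Without the interval the members' count was also 7. The median difference between copies was 1.21 on the log2 scale for the members' pairs and 0.63 for all pairs. The pairs of 1 locus share copies, and 6 of the 12 come from just 2 loci, so they are not independent. Without the short SAG15 gene there were 7 such loci and 11 pairs, of which 7 were apart.

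The widest gaps between copies were in LSR1, ERD7 and ZAT10. The LSR1 copies Csa4G214830 and Csa5G440140 differed 9.40-fold in their ratios [2.92 to 3.55 on the log2 scale], and Csa4G214830 and Csa6G013350 differed 6.80-fold [2.52 to 3.01]. For ERD7 the difference was 5.58-fold [2.30 to 2.66]. The ZAT10 copies Csa4G642460 and Csa7G071440 differed 4.11-fold [0.71 to 3.23], and Csa4G642460 and Csa2G354820 2.59-fold [0.63 to 2.09]. The LEA4-5 copies differed 3.49-fold [0.56 to 3.12] and the SCRM copies 2.06-fold [0.54 to 1.53]. With the length trend removed, the difference between the SCRM copies was 0.96 on the log2 scale, short of 2-fold. The RD21A copies differed 1.97-fold [0.78 to 1.18], also short of 2-fold, and the SAG15 genes 1.08-fold [-0.78 to 1.10]. The RD19A copies differed by 0.08 on the log2 scale, with an interval of -0.11 to 0.26. How reads that match several copies were counted is not given in the sources used here, so values of closely similar copies are uncertain.

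**Figure D3:**
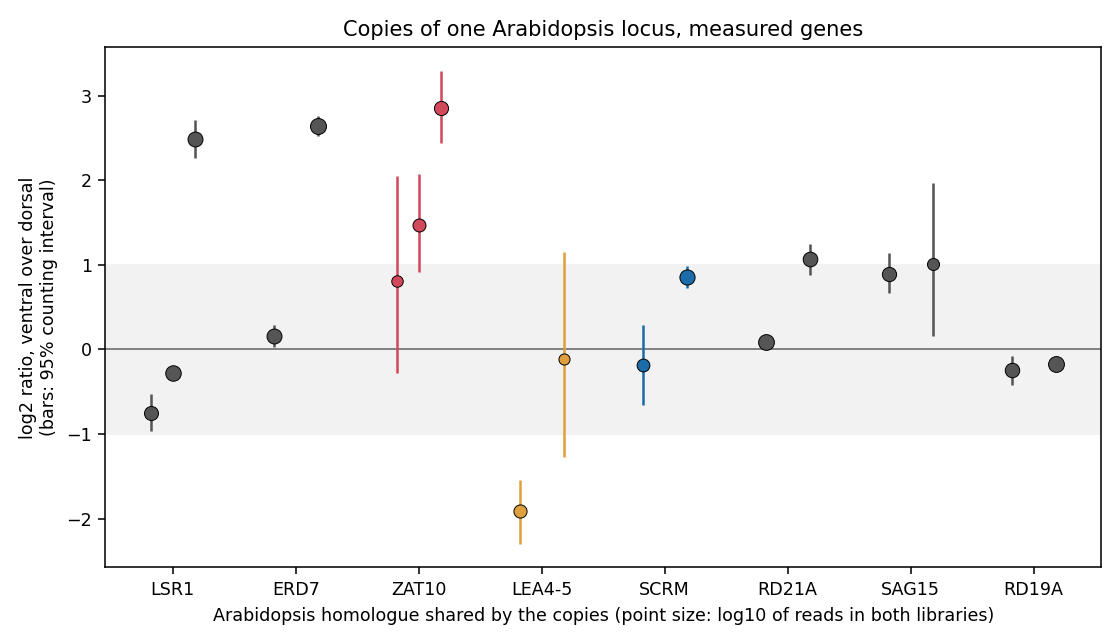
Log2 ratio, ventral over dorsal, of each measured copy in the 8 loci with several measured copies, with 95% counting intervals as bars and point size growing with the reads in both libraries. In LSR1, ERD7, RD21A and SAG15 a single copy lies above the grey band of ratios under 2-fold. The SAG15 genes nonetheless lie close together, at 1.01 and 0.90, and the RD19A copies lie together near 0.

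The ratio followed transcript length across all genes, which bears on single members. Exonic length was taken from the ratio of reads to RPKM. The median log2 ratio was -0.42 in the quintile of measured genes with the shortest exonic length, up to 857 bp, and 0.59 in the quintile with the longest, from 2274 bp. Among the measured members, 9 lay in the shortest and 6 in the longest quintile. Of the 9 ventral-high members, 3 were longer than the median of all measured genes, 1464 bp. With the trend removed, 9 members were ventral-high and 3 dorsal-high, against 10.9% and 8.34% of all measured genes. With that trend removed, RD21A (Csa7G073400) no longer stood apart, ZAT10 (Csa7G071440) did so newly, and P5CS2 joined the dorsal-high genes. LSR3, in the shortest quintile, then had 4.20 in place of 3.73, and ERD4, in the longest, had 2.05 in place of 2.59. When total reads replaced TMM in the scaling, with the length trend left in, 11 members were ventral-high and 2 dorsal-high, against 19.1% and 7.35% of all measured genes.

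**Figure D4:**
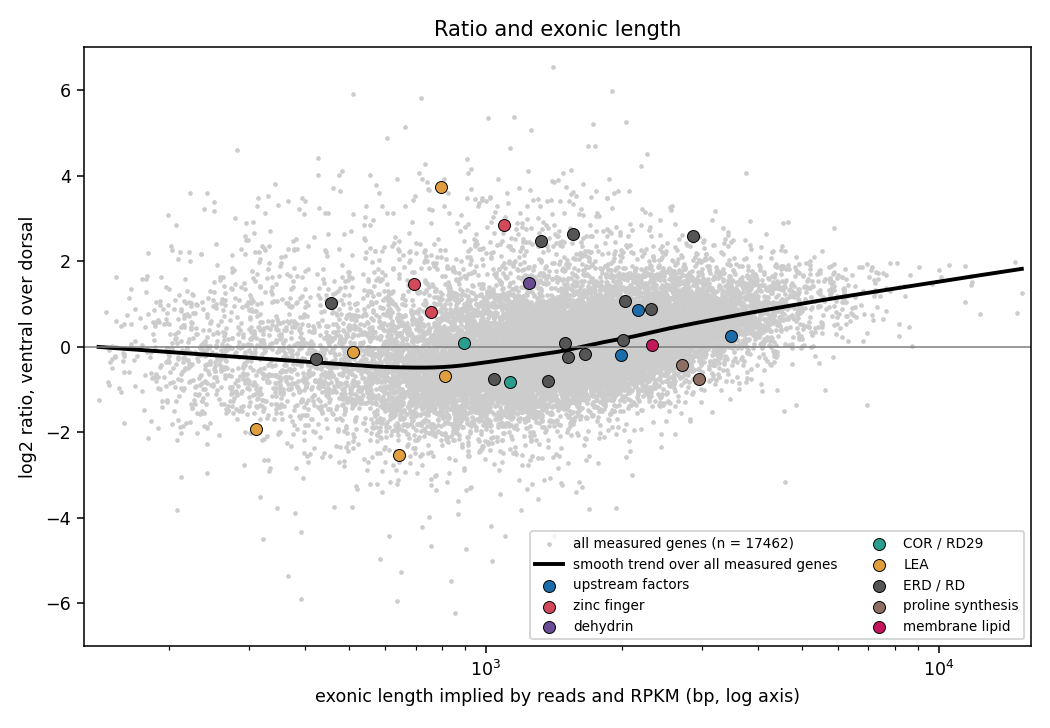
Log2 ratio, ventral over dorsal, against exonic length on a log axis, with all 17462 measured genes in grey, their smooth trend as a line and the 30 measured members coloured by role. LSR3, the ZAT10 copies and LTI45 lie above the line at short and middle lengths, and both P5CS genes lie below it at lengths of 2709 and 2954 bp.

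Further genes of the pathway, taken from lists by Arabidopsis locus, were read by the same rule. The DREB1 genes, which in Arabidopsis act upstream of many of the listed loci, were ventral-high in 3 of 3 measured genes, at 12.7-fold to 16.8-fold. Ventral and dorsal reads were 1343 and 37 for DREB1D (Csa5G155570) and 583 and 21 for DREB1A (Csa3G180260). DREB1B (Csa5G174570) had 165 ventral and only 6 dorsal reads, with a wide interval [2.52 to 5.14]. Another DREB1B copy had 2 reads in each library and was not measured. Of 15 further cold and dehydration genes, 6 were ventral-high and none dorsal-high, against 13.2% and 11.5% of all measured genes. Their median log2 ratio was 0.48, with 11 genes above 0 and 4 below. With the length trend removed 5 were ventral-high, against 10.9% of all measured genes. The ventral-high genes included STO1 (Csa4G064690), the NCED3 homologue that commits carotenoids to abscisic acid synthesis, with 1214 ventral and 53 dorsal reads and a 10.6-fold ratio. RD26 (Csa3G852470), a NAC transcription factor gene, was 4.17-fold higher with 144 ventral and 16 dorsal reads. GolS2 (Csa1G181330), a galactinol synthase of raffinose synthesis, was 3.94-fold higher with 366 ventral and 43 dorsal reads.

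Of 29 measured upstream regulators, 2 were ventral-high and 5 dorsal-high, against 13.2% and 11.5% of all measured genes. Their median log2 ratio was 0.27. When scaled by total reads, 8 were ventral-high and 4 dorsal-high, against 19.1% and 7.35% of all measured genes. The balance of this list thus depends on the scaling, as does that of all genes. MPK3 (Csa1G479630), a stress-activated kinase, was 4.75-fold higher in the ventral library with 2009 ventral and 196 dorsal reads. MEKK1 (Csa5G385380), a kinase at the head of such a cascade, was 2.41-fold higher, and its log2 ratio was 0.85 once the length trend was taken out. Higher in the dorsal library were the clock gene LHY1 (Csa6G095910), 4.09-fold, and SOC1 (Csa6G076720), 2.59-fold, SOC1 being at -0.90 with the length trend removed. The other three rested on fewer than 100 reads and were named after their values were seen: a copy each of SRK2E (Csa2G236620), MYB15 (Csa3G135050) and LOS4 (Csa3G746560).

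Of the 5 other proline metabolism genes, 1 stood apart, the PRODH2 homologue Csa5G643300 of proline breakdown, 2.46-fold higher in the ventral library with 446 ventral and 84 dorsal reads. The proline synthesis gene P5CR (Csa4G354630) had a log2 ratio of 0.05 and the transporter gene PROT1 (Csa5G197090) 0.68. Of the 3 other LEA and dehydrin genes, 1 stood apart, a dehydrin named after its values were seen (Csa2G249810), with 28 ventral and 2 dorsal reads. With the length trend removed, 2 of these 3 were ventral-high, against 10.9% of all measured genes. The added one, GEA6 (Csa4G311230), had only 20 ventral and 3 dorsal reads. The LEA26 homologue (Csa2G151040), by far the most read of the list, had 9001 ventral and 4011 dorsal reads and a log2 ratio of 0.06. None of the 3 other C2H2 zinc finger genes stood apart as counted, and 1 was ventral-high with the length trend removed. As counted, 13.2% of all measured genes were ventral-high and 11.5% dorsal-high.

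Tissue markers also differed between the libraries. For comparison, 13.2% of all measured genes were ventral-high and 11.5% dorsal-high. Of 14 photosynthetic markers, none was ventral-high and 10 were dorsal-high, and their summed level was 9350 RPKM on the ventral and 18961 RPKM on the dorsal side. Of 24 vascular markers, 1 was ventral-high and 6 were dorsal-high, with sums of 7262 and 8025 RPKM. Most of both vascular sums came from PP2-A1 (Csa7G056500), at 4625 RPKM (ventral) and 5641 RPKM (dorsal). It had a log2 ratio of -0.55 and did not stand apart. Of 11 epidermal markers, 1 was ventral-high and 3 were dorsal-high, with sums of 200 and 157 RPKM. When scaled by total reads, the ventral-high and dorsal-high counts were 2 and 3 for vascular, 2 and 1 for epidermal and 0 and 8 for photosynthetic markers. The shares of all measured genes were then 19.1% and 7.35%. Seed markers summed to 57.9 RPKM on the ventral and 90.9 RPKM on the dorsal side, and neither of the 2 measured genes stood apart. Most of these sums came from OLEO2 (Csa5G523090), with 858 ventral and 774 dorsal reads and a log2 ratio of -0.96. The other measured one, CRU1 (Csa3G384800), had 93 ventral and 38 dorsal reads, a log2 ratio of 0.18. The rest had few reads: OLEO1 and LEC2 had 2 and 1 ventral reads and 0 dorsal reads. FUS3 had 2 ventral and 3 dorsal reads, and another OLEO2 copy (Csa1G046300) had 9 and 4. The part of tissue makeup in the members' ratios was not tested, and in such bulk libraries fewer cells of a type and less RNA per cell cannot be told apart.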

How the data were processed

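Per the labels' protocols, libraries were directional and made from polyadenylated RNA. Per the submitters' processing notes, TopHat2 and edgeR were used (no versions); which build, counter and strand setting applied is not given in the sources used here. The authors deposited whole-number read counts per gene and, in a second table, RPKM.

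The members and lists were chosen with earlier results of these data known. Depths were 21863715 ventral and 11893394 dorsal reads. TMM factors came from edgeR 4.0.16 under R 4.3.3 over the 17462 genes with at least 20 reads, giving a ventral-to-dorsal depth ratio of 2.16. Ratios carry exact conditional binomial (Clopper-Pearson) 95% intervals, and intervals between copies are exact conditional odds ratio intervals (scipy 1.17.1). Both cover counting error only, as amplified copies are not independent molecules. A library at 0 is set to a floor of 3 reads.

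Exonic length is reads over RPKM, with its constant set per library at percentile 99 of implied over listed gene length. In genes of at least 10 RPKM in both libraries, the lengths from the libraries agreed within 1% for 99.5%. Among the 30 measured members, with no RPKM minimum, they did so for 73.3%, and the largest gap was 5.62%. The length trend is a lowess curve (fraction 0.3, statsmodels 0.14.6). The code was checked on simulated counts with planted changes and counting error only, which says nothing on the spread between replicate libraries. All members are accounted for. Genes of the lists other than tissue markers are named where they stand apart with at least 100 reads, at most 3 per direction and list. Photosynthetic, vascular and epidermal markers are given as counts and sums, apart from PP2-A1 (Csa7G056500). The seed markers, and some genes of the regulator, proline and LEA lists, are named outside this rule.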

Additional observations from a re-analysis of the deposited data

How the results depend on the processing

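No paired analysis was possible because there is a single library per side, and none could be left out. The members' counts of 9 ventral-high and 2 dorsal-high genes stayed within 1.5 times, at 8 to 11 and 2 to 3, with total reads, DESeq2 size factors, upper-quartile factors, the length trend removed, a minimum of 1 read, a stricter interval and RPKM with pseudocounts of 0.1 and 1. Over those settings, 10.9% to 19.5% of all genes were ventral-high and 5.29% to 11.9% dorsal-high. The members' median log2 ratio of 0.09 ranged from 0.06 to 0.35 over the alternatives, highest with RPKM. With RPKM the median of all genes was higher too, at 0.26 (pseudocount 0.1) and 0.23 (pseudocount 1). A minimum of 100 reads left 8 ventral-high genes and 1 dorsal-high gene of 26, beside 12.2% and 10.4% of all genes. LEA7 and SAG15 (Csa7G184670) were then not measured. A 1.5-fold threshold gave 7 dorsal-high genes, beside 22.9% of all genes. Counting each locus once, by its most-read copy, left 5 ventral-high genes of 20, since 1 ZAT10 copy dropped out and the more abundant copies of LSR1, RD21A and SAG15 did not stand apart. Both dorsal-high genes stayed. Among all 12455 genes so counted, 11.9% were ventral-high and 10.4% dorsal-high. Total reads raised every log2 ratio by 0.23 and the median of all genes to 0.24, and turned the sign of 3 members that did not stand apart (RD19A Csa2G249900, LEA4-5 Csa4G499300 and SCRM Csa3G598900). Removing the length trend turned the sign of 5 that did not stand apart. SAG15 (Csa7G184670) no longer stood apart with upper-quartile factors, a stricter interval or RPKM with a pseudocount of 1. Leaving out this gene, which may be a fragment of its neighbour, a step chosen after the data were seen, gave 8 ventral-high and 2 dorsal-high genes of 29. Depth limits LEA7, LEA4-5 (Csa4G499300) and ZAT10 (Csa7G071440), each with under 50 reads.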
